A study of Canis lupus familiaris with 30 samples.

Results

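The change in blood mononuclear cell RNA between week 3 and week 6 was measured in dogs fed kibble throughout. It was read directly on 4 of the 30 two-channel Agilent arrays of the study, those that carried kibble week 3 RNA in Cy3 and kibble week 6 RNA in Cy5. Adult dogs ate only a premium kibble containing carbohydrate (8 dogs) or only a raw red meat diet rich in protein and fat (7 dogs) for 9 weeks. Peripheral blood mononuclear cells, the lymphocytes and monocytes that a density gradient separates from most granulocytes and red cells, were collected at weeks 0, 3, 6 and 9. The study's design text gives 6 biological replicates, and the labels do not say which dog or pool of dogs lies on which array, or give age, sex or breed. All 4 kibble arrays had the same dye order, so their ratio is the change in RNA plus a dye effect. The dye effect of each gene was estimated jointly from these 4 arrays and the other arrays of the same weeks. The others were 4 arrays of raw meat week 6 (Cy3) against raw meat week 3 (Cy5), 3 arrays of both diets at week 3 and 4 of both diets at week 6. The last 2 kinds were in both dye orders. A dye-corrected ratio is the ratio of a kibble array minus this joint dye term, so the correction is not independent of the kibble arrays. Kibble week 3 RNA was read in 7 channels of these 15 arrays and kibble week 6 RNA in 8.

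Blood mononuclear cells are a mixture, and a transcript level in them follows both how many cells of each type are present and how active each type is. In this bulk RNA, fewer cells of a type and less RNA per cell cannot be told apart. CD8 T cells and natural killer cells kill target cells with perforin and granzymes and release the chemokines CCL4 and CCL5. Monocytes sense microbes and take up debris, platelets adhere to monocytes and carry their own RNA, and interferon-stimulated genes answer viral signals. Ribosomal protein genes encode the machinery of translation and are among the most abundant transcripts of lymphocytes.

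On the 15 arrays, the number of probes well above background ranged from 21644 to 29117 in the Cy3 channel and from 23182 to 29455 in the Cy5 channel. Of 43603 probes, 2175 had a gene symbol, and after filtering 23602 genes or transcripts were tested, 1007 of them with a symbol. The labelled cell type was checked against markers. CD4 and CD8A of T cells, MS4A1 of B cells and CD163, CD86 and CTSS of monocytes were well above background in all 15 kibble channels. Of the T cell list only CD4 and CD28 were measured here under a symbol, and of the B cell list only MS4A1. LTF and CAMP of neutrophils, which a density gradient should mostly leave behind, were well above background in all 15 channels too. So were S100A8 and the platelet genes ITGA2B and SELP.

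One kibble array stood apart. The log2 ratios of kibble array 2 had an SD of 0.418, against 0.185, 0.184 and 0.207 on kibble arrays 1, 3 and 4. The ratios of array 2 correlated with those of raw meat array 2, hybridised on the same slide with the opposite time order, at r = -0.72 over the 23602 units. Pairs of kibble arrays correlated at 0.315 to 0.481. Both correlations are over genes, which are not independent replicates, and both include the dye effect of each gene. Values without array 2 are given beside some of the results below, and it moved others as well.

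No gene or transcript passed the test for a change from week 3 to week 6 on kibble. With limma and Benjamini-Hochberg adjustment over all units, 0 of 23602 (0%) had an adjusted p below 0.05, and the smallest adjusted p was 0.0869. That p belonged to an unnamed transcript, ENSCAFT00000027475, whose fitted value was 0.46 higher at week 6 on the log2 scale. Unadjusted p was below 0.05 for 4242 units, of which 2005 (8.5%) lay higher and 2237 (9.48%) lay lower at week 6. The fitted changes were small. Their median was 0.0065 log2, the 5th and 95th percentiles were -0.22 and 0.32, and the median standard error was 0.0729. The ratio lay above 0 on all 4 kibble arrays for 3702 units (15.7%) and below 0 on all 4 for 3483 (14.8%). Among the 1007 named genes, 186 had an unadjusted p below 0.05, 69 of them higher and 117 lower. Without array 2 the number of units at an unadjusted p below 0.05 was 2473 rather than 4242, and 1356 of these (5.75%) lay lower. When raw meat array 1 was left out instead, 55 units passed the adjusted threshold, and a fit to all 30 arrays called 10 (0.0424%), 9 higher and 1 lower.

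PTGER4, a receptor for prostaglandin E2 that raises cyclic AMP in lymphocytes and monocytes, had the smallest p of the named genes. Its dye-corrected log2 ratios of week 6 over week 3 were 0.43, 0.80, 0.46 and 0.65 on kibble arrays 1 to 4. All 4 arrays were higher at week 6, with array 2 the highest. The fitted change was 0.55 ± 0.10 (SE of the limma fit to 15 arrays), or 1.47-fold, with an adjusted p of 0.104. In the fit to 30 arrays it was 0.53 and passed with an adjusted p of 0.0415, and without array 2 it was 0.50 with an adjusted p of 0.278. PTGER4 was represented by 1 probe.

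Other named genes with the smallest p on the higher side lay closer to 0. PYGL, the glycogen phosphorylase of liver and leukocytes, gave 0.42, 0.90, 0.51 and 0.26 on the 4 arrays and a fitted change of 0.46 ± 0.10. Without array 2 the fitted change of PYGL was 0.36. ESRRA, a nuclear receptor that drives mitochondrial genes, gave 0.43, 0.63, 0.02 and 0.48 and a fitted change of 0.38 ± 0.08, so that array 3 showed almost none of it. PPAN, a ribosome assembly factor, was fitted at 0.32 ± 0.08 and the zinc finger gene ZBED5 at 0.28 ± 0.05. The second probe of PYGL gave 0.24, that of ESRRA 0.18 and that of PPAN 0.16, while the other probes of ZBED5 gave 0.31, 0.22 and -0.05. These 4 genes and PTGER4 lay above 0 on all 4 arrays, none of the 5 passed adjustment, and kibble array 2 gave the highest value for each of them.

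CD8A, the alpha chain of the CD8 co-receptor of killer T cells, had the smallest p among named genes on the lower side and the lowest fitted value of all 23602 units. Its ratios were -1.14, -1.0, -0.40 and -1.05 on kibble arrays 1 to 4. Array 3 lay well above the other three, and all 4 were below 0. The fitted change was -0.81 ± 0.16, which makes week 3 1.76 times week 6, with an adjusted p of 0.104. Without array 2 it was -0.77. CCL4, a chemokine of activated killer cells and monocytes, had ratios of -0.75, -0.40, -0.22 and -0.45 and a fitted change of -0.45 ± 0.11 (adjusted p = 0.106). The remaining 4 genes of the lower side were ribosomal protein genes. RPL27 was fitted at -0.27 ± 0.06, RPL23 at -0.23 ± 0.06, RPS14 at -0.30 ± 0.07 and RPS10 at -0.19 ± 0.05.

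**Figure D1:**
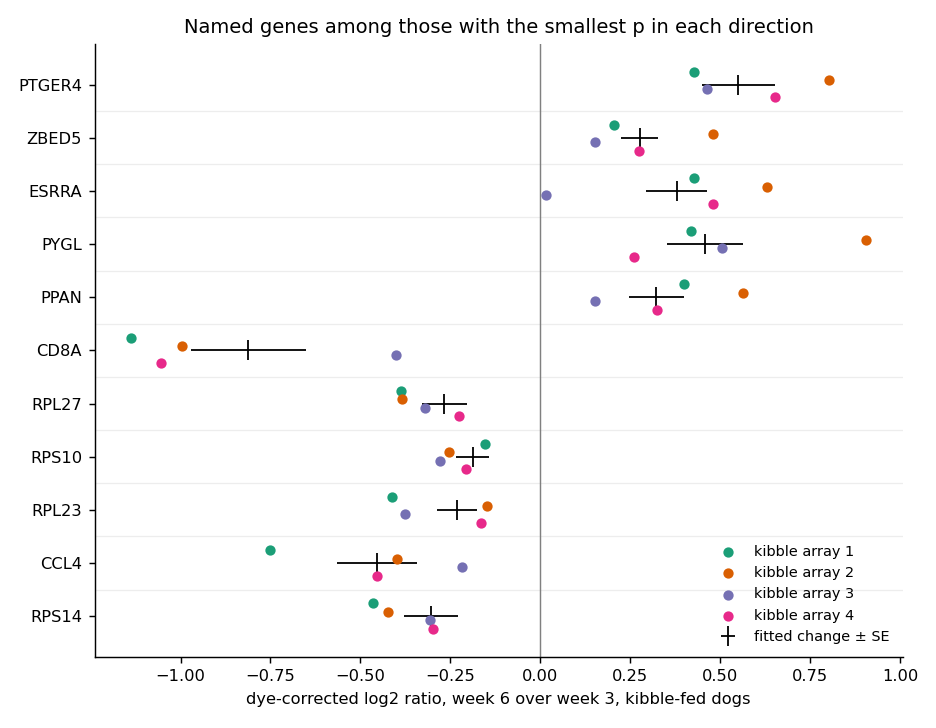
Dye-corrected log2 ratio of week 6 over week 3 (x axis) for 5 named genes on the higher and 6 on the lower side among those with the smallest p (y axis), on each of the 4 kibble arrays (coloured points), with the fitted change and its standard error (black bar and line). All 4 points of PTGER4 lie between 0.43 and 0.80 and all 4 of CD8A between -1.14 and -0.40, while array 2 (orange) is the highest point of each of the 5 upper genes.

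CD8A belonged to the list of cytotoxic T and NK cell markers, and the counts and medians of that list include it. Of 8 measured cytotoxic T and NK cell markers, 7 had a fitted change below 0 and 1 above, with a median of -0.28 beside 0.0065 over all units. Unadjusted p was below 0.05 for 4 of the 8, all on the lower side, where the background over all units was 9.48%, and none of the 8 passed adjustment. The median of the list was -0.32, -0.38, -0.26 and -0.24 on kibble arrays 1 to 4, so that each array gave a value below 0. CCL5, which recruits T cells and is stored by killer cells and platelets, had ratios of -0.85, -0.51, -0.50 and -0.96. Its fitted change was -0.66 ± 0.18 (adjusted p = 0.12). PRF1, the pore-forming perforin, had closely grouped ratios of -0.39, -0.48, -0.48 and -0.41 and a fitted change of -0.37 ± 0.14 (adjusted p = 0.214). CX3CR1, the fractalkine receptor of killer cells and patrolling monocytes, gave -0.34, -0.49, -0.12 and -0.24 and was fitted at -0.30 ± 0.14. KLRD1, which encodes CD94 of NK cell receptors, was below 0 on all 4 arrays with a fitted change of -0.26 ± 0.18. The Fas ligand gene FASLG lay at -0.09 ± 0.12. NCR1, an activating receptor of NK cells, was the 1 member above 0, at 0.05 ± 0.05, and was well above background in only 2 of 7 week 3 channels and 4 of 8 week 6 channels. Without array 2 the list's median was -0.26 and 2 of the 8 kept an unadjusted p below 0.05, CD8A and CCL5. With a dye term per scan session the median was -0.26. Unadjusted p was then below 0.05 on the lower side for 2 of the 8, beside 5.57% of all units. CD4, the co-receptor of helper T cells, lay on the other side of 0 from CD8A. Its ratios were 0.88, 0.45, 0.70 and 0.23, and its fitted change was 0.53 ± 0.27 (adjusted p = 0.31). MS4A1, the CD20 of B cells, was fitted at -0.16 ± 0.33.

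Monocyte transcripts lay slightly higher at week 6 on the 4 kibble arrays, and no member reached an unadjusted p below 0.05. All 8 measured monocyte and macrophage markers had a fitted change above 0, from 0.00 for LGALS3 to 0.20 ± 0.12 for CD86, with a median of 0.12. CD86, a co-stimulatory ligand for T cells, had ratios of 0.36, 0.27, 0.30 and 0.25 on the 4 arrays, which were close to each other. CD163, the scavenger receptor for haemoglobin, gave 0.14, 0.27, 0.19 and 0.28 and was fitted at 0.13 ± 0.13. The fitted values of these genes lay below their values on the 4 arrays, because the fit also draws on the other arrays of weeks 3 and 6. With a dye term per scan session the median of the list was 0.0096, and 3 of the 8 lay below 0. Of 9 platelet markers, 8 were fitted below 0, with a median of -0.24, and again none had an unadjusted p below 0.05. The platelet list's median was 0.03, -0.24, -0.06 and -0.17 on the 4 arrays, so that array 1 showed no such shift. With a dye term per scan session it was -0.38. GP1BA, part of the receptor for von Willebrand factor, gave -0.23, -0.52, -0.29 and -0.48 and was fitted at -0.41 ± 0.25. TFPI, an inhibitor of clotting, gave -0.26, -0.74, -0.14 and -0.50 and was fitted at -0.46 ± 0.26. VWF, which encodes von Willebrand factor itself, was the 1 member above 0, at 0.27 ± 0.13. The platelet integrin genes ITGA2B and ITGB3 were within 1 standard error of 0, at -0.15 ± 0.23 and -0.11 ± 0.20.

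**Figure D2:**
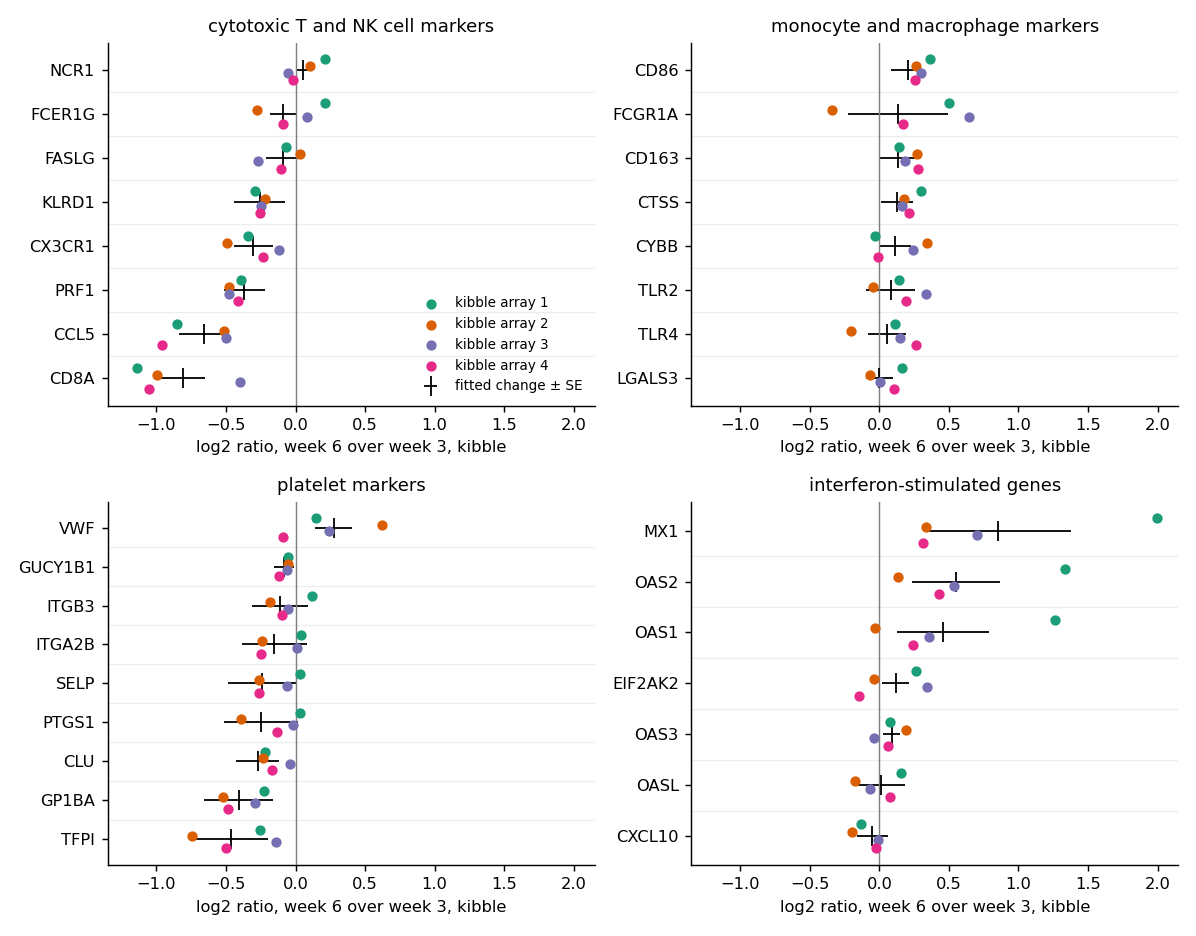
Dye-corrected log2 ratio of week 6 over week 3 (x axis) for every measured member of 4 lists (y axis, 1 panel a list) on the 4 kibble arrays (coloured points), with the fitted change and its standard error (black). PRF1 and KLRD1 show tight points below 0, CD8A and CCL5 lie furthest left, and kibble array 1 (green) carries the high values of MX1, OAS2 and OAS1.

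Among interferon-stimulated genes, MX1, OAS2 and OAS1 were highest on the same array. MX1, which encodes an antiviral GTPase, had ratios of 2.00, 0.34, 0.70 and 0.31 on kibble arrays 1 to 4. OAS2 and OAS1, antiviral enzymes that sense double-stranded RNA, gave 1.34, 0.13, 0.54 and 0.43, and 1.26, -0.03, 0.36 and 0.24. Array 1 was the highest for all 3 genes. The fitted changes were 0.85 ± 0.52 for MX1, 0.55 ± 0.31 for OAS2 and 0.46 ± 0.33 for OAS1, with adjusted p of 0.387, 0.355 and 0.462. Of 7 measured members, 6 were fitted above 0 and the median was 0.12. The list's median was 0.27, -0.03, 0.34 and 0.08 on arrays 1 to 4, so that over the list array 3 was above array 1. The chemokine gene CXCL10 was fitted at -0.05 ± 0.11 and OASL at 0.01 ± 0.17.

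Ribosomal protein genes lay lower at week 6. All 20 measured members of the list had a fitted change below 0, with a median of -0.16, and 15 of the 20 had an unadjusted p below 0.05 against a background of 9.48% on that side. None passed adjustment, and the smallest adjusted p was 0.104. Of the 20, 14 were below 0 on all 4 kibble arrays, where the background was 14.8%. Array by array, the median of the list was -0.19, -0.20, -0.26 and -0.10. RPS18 gave -0.21, -0.35, -0.30 and -0.20 and was fitted at -0.21 ± 0.06, and RPL12 gave -0.27, -0.33, -0.36 and -0.06 and was fitted at -0.22 ± 0.06. RPL4, at -0.00 ± 0.05, and RPL18, at -0.05 ± 0.11, were closest to 0. Without array 2 all 20 stayed below 0 and 12 had an unadjusted p below 0.05, beside a background of 5.75%.

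The ribosomal values moved with the dye term. That term was above 0 for all 20 genes, with a median of 0.20 log2, and passed adjustment for 16 of them, all brighter in Cy5, against a background of 5.09% of all units. Before the dye term was subtracted the median ratio of the 20 genes was 0.047, beside 0.025 over all units. RPS14 shows the size of the correction. Its uncorrected ratios were 0.23, 0.27, 0.39 and 0.40 on arrays 1 to 4, its dye term was 0.70 ± 0.05, and its corrected ratios were -0.46, -0.42, -0.31 and -0.30. With a separate dye term for each scan session, since the time arrays and the diet arrays were scanned in different sessions, all 20 genes remained below 0 with a median of -0.12. Unadjusted p was then below 0.05 for 7 of the 20, beside 5.57% of all units. In a fit with no dye term the median of the list was -0.064, still below 0 but less than the -0.16 of the fit with it. In that fit RPL27 was at -0.18, RPL23 at -0.15, RPS10 at -0.01 and RPS14 at 0.017.

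**Figure D3:**
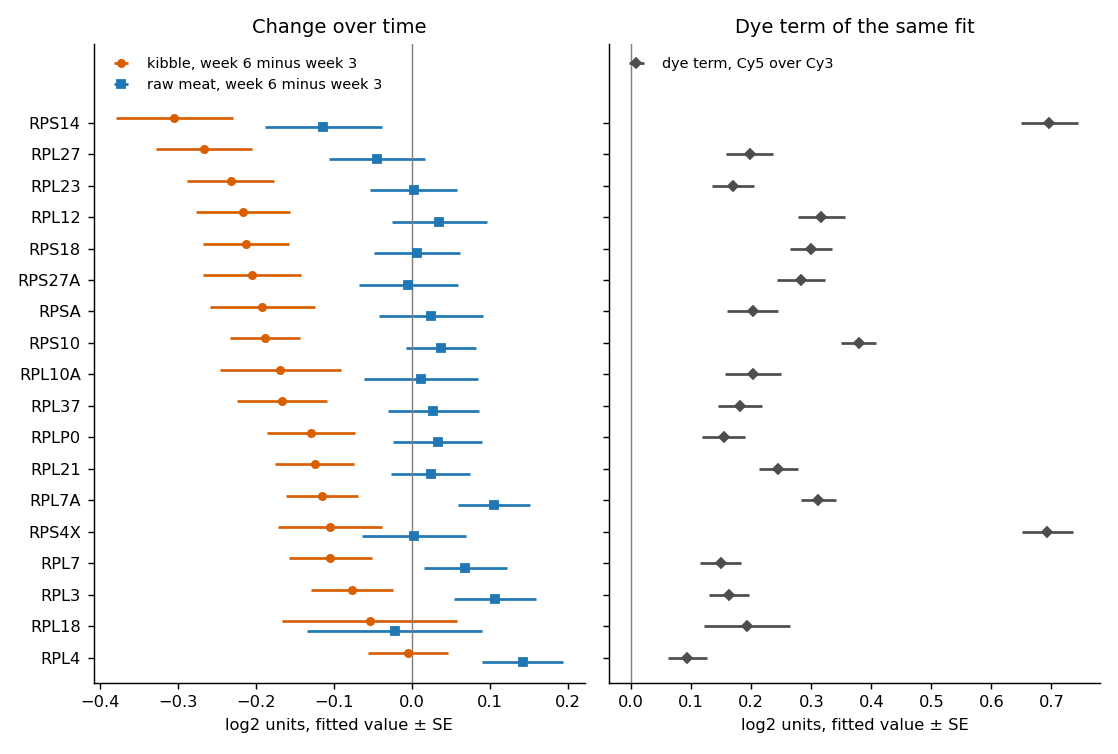
Fitted log2 values with standard errors for 18 of the 20 measured ribosomal protein genes (y axis). The left panel shows the change from week 3 to week 6 on kibble (circles) and on raw meat (squares), and the right panel the dye term, Cy5 over Cy3, of the same fit. All 18 kibble values lie below 0, 14 of the 18 raw meat values lie above 0, and all 18 dye terms lie above 0.

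The design offers a second way to the same change, through the arrays that compare the diets at each week and the raw meat time arrays, without any of the 4 kibble arrays. This indirect value uses none of the 4 kibble arrays. The direct value is the mean of those 4 arrays minus the dye term of the diet arrays. The values are not independent, since both use the diet arrays and that dye term, whose error enters them with opposite sign. For some genes the paths met. ZBED5 was 0.28 by the direct and 0.26 by the indirect path, CCL4 was -0.46 and -0.44, and ESRRA was 0.40 and 0.33. PTGER4 was 0.64 and 0.36, and CCL5 was -0.77 and -0.42. CD8A was -1.02 by the direct and -0.37 ± 0.36 by the indirect path. For PRF1 the paths gave -0.54 and 0.01, and for PYGL 0.61 and 0.12.

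Whole lists parted between the paths. The 20 ribosomal protein genes had a median of -0.23 by the direct path, with 18 below 0, and of -0.01 by the indirect path, with 11 below 0. The 8 monocyte markers had a median of 0.30 by the direct path, with all 8 above 0, and of -0.29 by the indirect path, with 7 below 0. The platelet list gave -0.02 and -0.56. The cytotoxic list gave -0.27 and -0.31, so that its median was below 0 by both, with 6 of 8 members below 0 each time. The interferon list gave 0.09 and 0.18. Over all 23602 units the medians were 0.016 and -0.0028. The indirect values are less precise, with a standard error of 0.25 for PTGER4 against 0.10 in the full fit.

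Among genes of prostaglandin and leukotriene signalling, 3 lay higher at a small unadjusted p. Of 10 measured members, 8 were fitted above 0, the median was 0.10, and 3 had an unadjusted p below 0.05, all on the higher side, where the background was 8.5%. These 3 were PTGER4, ALOX5 and ANXA1, and without array 2 they were 2, PTGER4 and ALOX5. ALOX5, which makes leukotrienes in myeloid cells, was measured on 3 kibble arrays, with ratios of 0.52, 0.71 and 0.32 on arrays 2 to 4 and a fitted change of 0.50 ± 0.17 (adjusted p = 0.169). ANXA1, an inhibitor of leukocyte recruitment, gave 0.19, 0.44, 0.11 and 0.35 and was fitted at 0.25 ± 0.09. PTGES, the prostaglandin E2 synthase, was fitted at 0.29 ± 0.15, while the cyclooxygenase genes PTGS1 and PTGS2 were at -0.25 ± 0.27 and 0.05 ± 0.23.

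The inflammatory list was mixed, with 8 of 15 members above 0 and a median of 0.05. NFKB1, a subunit of NF-kB, gave 0.03, 0.57, 0.12 and 0.25 and was fitted at 0.23 ± 0.07 (adjusted p = 0.154). Its other probe, less bright, gave -0.13, and the mean over both probes 0.05. BIRC3, an inhibitor of apoptosis induced by NF-kB, was 0.27 ± 0.10, and 0.17 without array 2, which gave 0.68. The neutrophil attractant CXCL8 varied widely, with 0.48, 1.48, -0.09 and 1.76 on the 4 arrays and a fitted change of 0.60 ± 0.53. IL10, the anti-inflammatory cytokine, was fitted at -0.37 ± 0.13, with -1.05 on array 2 and -0.02, -0.17 and -0.27 on arrays 1, 3 and 4. Without array 2 it was -0.22. MCL1, which keeps leukocytes alive, gave 0.17, 0.69, 0.38 and 0.32 and was fitted at 0.35 ± 0.12 (adjusted p = 0.162). CYCS, the cytochrome c of the respiratory chain, was measured on 3 kibble arrays and fitted at -0.25 ± 0.10.

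Of 10 measured genes of T cell activation, 9 were fitted below 0, with a median of -0.11. CD44, an adhesion receptor raised on activated and memory T cells, gave -0.28, -0.47, -0.06 and -0.28 and was fitted at -0.29 ± 0.11 (adjusted p = 0.2). Its unadjusted p was below 0.05, but without array 2 no member on the lower side had one. CD28, a co-stimulatory receptor, was at -0.18 ± 0.09. CTLA4, the inhibitory counterpart of CD28, spread from -1.81 on array 3 to 1.45 on array 2 and was fitted at -0.17 ± 0.37, or at -0.52 without array 2. Of 11 MHC class II and co-stimulation genes 5 were above and 6 below 0, with a median of -0.0045. The class I list had 6 of 8 below 0 and a median of -0.09. TAP2, which carries peptides into the endoplasmic reticulum, was at 0.75 on array 2 and between -0.00 and 0.07 on the other 3 arrays. DLA-79, a class I gene, was below 0 on all 4 arrays and fitted at -0.36 ± 0.20.

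Metabolic and stress genes showed single members at small unadjusted p. CPT1A, which admits fatty acids to mitochondria, gave -0.48, -0.67, 0.12 and -0.28 and was fitted at -0.32 ± 0.12 (adjusted p = 0.196). Its other probe gave 0.08, and the mean over both probes -0.12. In the glycolysis list 3 of 7 were above 0, and ALDOC, an aldolase, was at -0.22 ± 0.09. SLC11A1, an iron and manganese transporter of phagosomes, gave 0.69, 1.23, 0.24 and 0.38 and was fitted at 0.54 ± 0.17 (adjusted p = 0.15). It was 0.39 without array 2. HAMP, which encodes the iron hormone hepcidin, gave -0.23, -0.63, -0.25 and -0.11 and was fitted at -0.30 ± 0.09. GPX1, a selenium-dependent peroxidase, was at -0.18 ± 0.07. In the list of proteasome and ubiquitin genes all 5 were below 0, with a median of -0.10. PSMD4, a subunit of the proteasome's regulatory particle, was fitted at -0.12 ± 0.05 (adjusted p = 0.251).

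Genes of movement and cell shape were split. Of 9 chemokine receptor and homing genes 5 were above 0, with a median of 0.04, or of -0.07 with a dye term per scan session. CCR1, a chemokine receptor of monocytes, gave 0.27, 0.14, 0.21 and 0.54 and was fitted at 0.25 ± 0.10 (adjusted p = 0.214). Of 11 cytoskeleton and adhesion genes 4 were above 0. VIM, which encodes the intermediate filament vimentin, gave 0.30, 0.24, 0.18 and 0.42 and was fitted at 0.21 ± 0.08, with its other probe at 0.07. EZR, which links actin to the membrane, was fitted at -0.18 ± 0.07, with its other probes at -0.15 and 0.05. Of 12 genes of the unfolded protein response and secretion 8 were below 0, and SSR1, a subunit of the translocon-associated complex, was fitted at -0.28 ± 0.10, with -0.72 on array 2 and -0.12, -0.05 and -0.10 on arrays 1, 3 and 4. The other probe of SSR1 gave -0.07. Without array 2 SSR1 was fitted at -0.19 and no member of its list had an unadjusted p below 0.05. All 4 measured oxidative phosphorylation genes were below 0, with a median of -0.15, among them COX8A, a subunit of cytochrome c oxidase, at -0.18 ± 0.06. HMOX1, which degrades haem, gave 0.51, -0.07, 0.40 and 0.43 and was fitted at 0.21 ± 0.13, in an antioxidant list with 9 of 11 members above 0 and a median of 0.06. Of 6 heat shock genes 4 were above 0, of 6 cell cycle genes 2, of 5 dendritic cell markers 4, and of 11 drug transporter and cytochrome genes 5.

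The lists of other blood cells showed how far single arrays differed. Of 6 neutrophil markers 3 were above 0, with a median of 0.09, but the list's median was -0.24 on array 2 and 0.34, 0.36 and 0.25 on arrays 1, 3 and 4, and without array 2 5 of the 6 lay above 0. With a dye term per scan session the median was -0.11. ELANE, neutrophil elastase, was below 0 on all 4 arrays and fitted at -0.21 ± 0.06 (adjusted p = 0.127). ELANE was well above background in 6 of 7 week 3 channels and 7 of 8 week 6 channels. MMP9, the gelatinase of neutrophil granules, gave 0.81, 0.54, 0.96 and 0.48 on the kibble arrays. Its fitted change of 0.68 had a standard error of 0.90. Red cell markers had 3 of 7 above 0. RHAG, a membrane protein of red cells, was 1.58 on array 2 and 0.06, 0.18 and -0.22 on arrays 1, 3 and 4. The basophil receptor gene FCER1A gave 0.96, 0.08, 0.45 and 0.36 and was fitted at 0.37 ± 0.19.

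**Figure D4:**
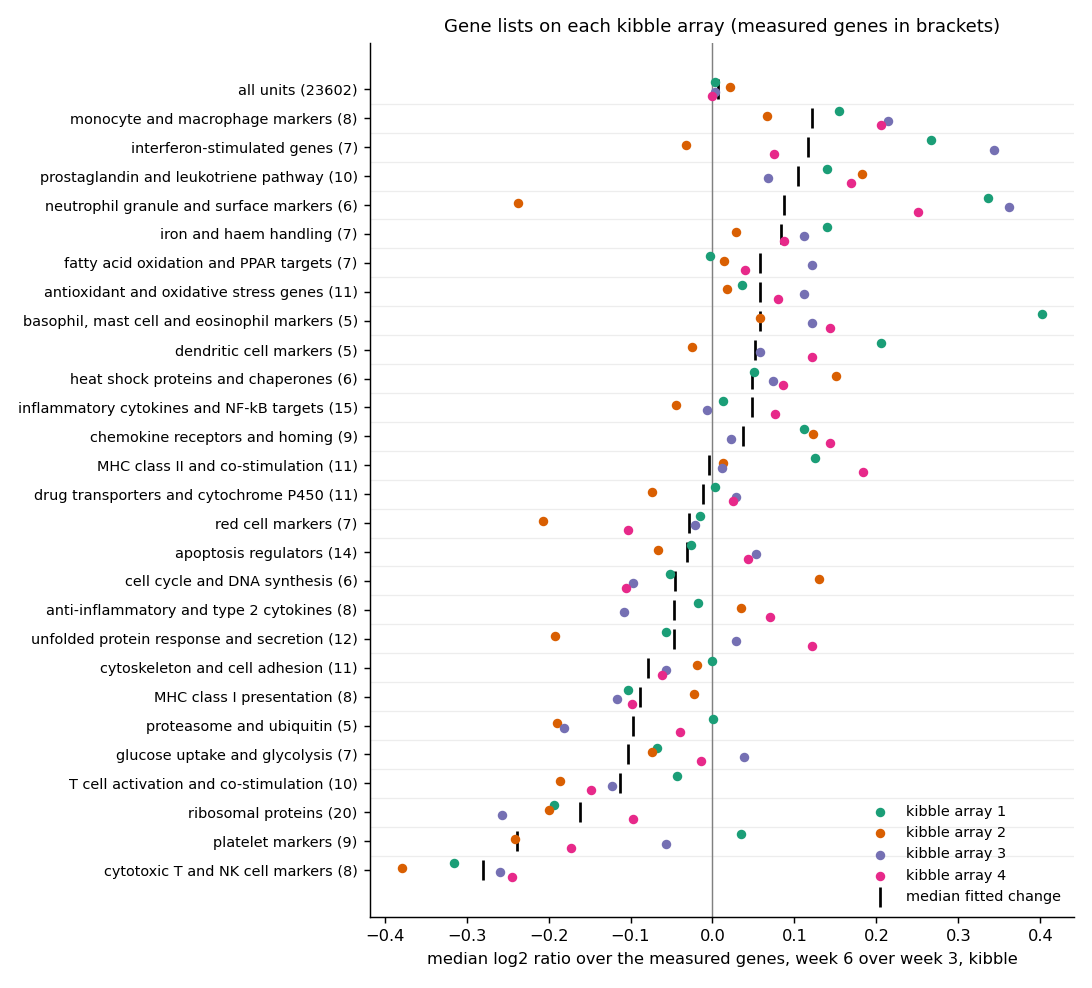
Median dye-corrected log2 ratio of week 6 over week 3 (x axis) over the measured genes of each list with at least 5 measured genes and over all units (y axis, number of genes in brackets), on the 4 kibble arrays (coloured points), with the median fitted change (black bar). The all-unit medians lie between -0.0003 and 0.02, the ribosomal and cytotoxic lists are below 0 on every array, and the neutrophil list has array 2 (orange) at -0.24 with the other arrays above 0.

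Whether the change on kibble differed from that on raw meat was tested in the same fit, which shares the 7 diet arrays and the dye term between the changes. None of 23602 units (0%) passed adjustment, with a smallest adjusted p of 0.572. Unadjusted p was below 0.05 for 1973 units (8.36%), 999 (4.23%) with the kibble change above the raw meat change and 974 (4.13%) below it. With a dye term per scan session the number of such units was 1114 (4.72%), and with a block for each slide 892 (3.78%). On raw meat itself 285 units (1.21%) passed, but a gene that passes on 1 diet is not thereby shown to differ between them. At an unadjusted p below 0.05 the raw meat change was higher for 10.1% and lower for 7.05% of units. PTGER4 was 0.50 ± 0.10 on raw meat (adjusted p = 0.0352) beside 0.55 ± 0.10 on kibble, and the difference of 0.05 had a 95% interval from -0.22 to 0.33. CCL4 was -0.62 ± 0.11 on raw meat (adjusted p = 0.0208) beside -0.45 ± 0.11, with an interval of the difference from -0.14 to 0.47. CD8A was -0.58 ± 0.16 beside -0.81 ± 0.16, and the interval ran from -0.67 to 0.21. These intervals do not show that the diets acted alike.

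For several named genes the difference between the diets had an unadjusted p below 0.05. RPS10, PSMD4, ZBED5, CYP2D15 and CX3CR1 are given here, each with an adjusted p of 0.572 for the difference. RPS10 was -0.19 on kibble and 0.04 on raw meat, a difference of -0.23 ± 0.06 (unadjusted p = 0.00151). PSMD4 was -0.12 and 0.10, a difference of -0.22 ± 0.07. ZBED5 was 0.28 on kibble and 0.07 on raw meat, a difference of 0.20 ± 0.07. CYP2D15, a canine cytochrome P450, gave 0.40, 0.06, 0.30 and 0.31 on the kibble arrays and was fitted at 0.25 ± 0.08, against -0.14 ± 0.08 on raw meat, a difference of 0.39 ± 0.11 (unadjusted p = 0.00274). CX3CR1 was -0.30 on kibble and 0.13 on raw meat, a difference of -0.44 ± 0.18. Of the 20 ribosomal protein genes, 15 had a kibble change below the raw meat change at an unadjusted p below 0.05, where the background was 4.13%, and the median on raw meat was 0.02. Week 6 was in Cy5 on the kibble time arrays and in Cy3 on those of raw meat. An error in the dye term therefore moves the 2 changes in opposite directions. That term had a median of 0.20 for the 20 genes, and was 0.38 for RPS10 and 0.34 for CX3CR1. Its part in these differences was not tested. Of the 8 monocyte markers, 6 had a raw meat change above 0 at an unadjusted p below 0.05 (median 0.33; 10.1% of all units), against 0 on kibble. The difference had an unadjusted p below 0.05 for 3, LGALS3, TLR2 and TLR4, with the kibble change below the raw meat change (4.13% of all units). Of the 9 platelet markers, 5 lay lower on raw meat at that threshold (median -0.64; 7.05% of all units), against 0 on kibble. The difference reached it for 2, SELP and VWF, with the kibble change above the raw meat change (4.23% of all units). Of the 8 cytotoxic T and NK cell markers, 4 lay lower on raw meat at that threshold (median -0.28; 7.05% of all units). On kibble 4 did too (median -0.28; 9.48% of all units). The difference reached it for 1, CX3CR1, with the kibble change below the raw meat change (4.13% of all units). No member of these lists passed adjustment for the difference.

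**Figure D5:**
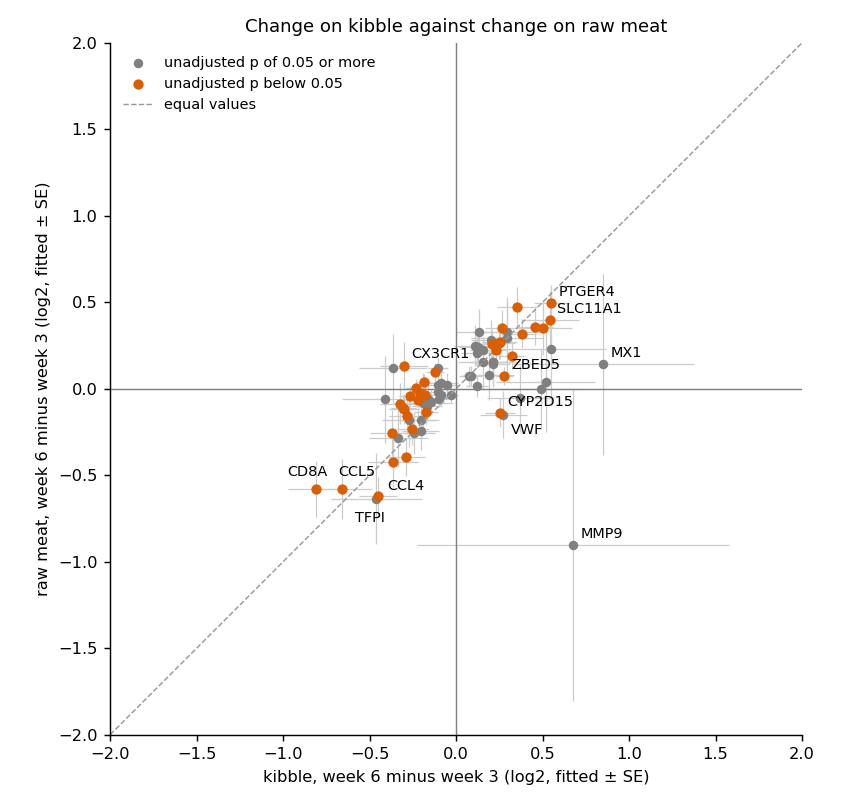
Fitted log2 change from week 3 to week 6 on kibble (x axis) and on raw meat (y axis) with standard errors for genes taken by the naming rule, which share the diet arrays and the dye term in 1 fit. PTGER4, CCL4, CCL5 and CD8A lie near the line of equal values, MX1 and CYP2D15 lie to its right, and MMP9 has the widest errors.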

How the data were processed

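Total RNA was read on 30 two-colour arrays. The deposited scanner files give, per the file headers, the intensity of every spot as a median over its pixels, for both dyes, and the local background (Agilent Feature Extraction 10.10.1.1), and the authors' deposited matrix gives normalised log2 ratios. The submitters' processing notes list limma, with no role given. Their scale and direction, Cy5 over Cy3, were checked against the scanner ratios (r 0.834 to 0.992). Here, median signals were background-corrected (normexp, offset 50) and loess-normalised within arrays. Control spots, 373 spots marked as faulty on the 15 arrays of weeks 3 and 6, and probes well above background in fewer than 7 of their 30 channels were left out, and 0 spots were saturated. Of several probes for a gene or accession the brightest was kept. Values missing on an array were left out of that gene's fit (179 units), which was the case for ALOX5 on kibble array 1 and for CYCS, RPL10A and S100A8 on array 3. Symbols came from matching accessions to a RefSeq gene table of another assembly than the array's, so positions are not given.

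The 15 arrays were fitted in limma 3.58.1 (R 4.3.3, files read with jsonlite 2.0.0 and the package data.table, version 1.17.8) with a term for each diet and week and a dye term per gene, leaving 11 residual degrees of freedom. Tests were two-sided, adjusted by Benjamini-Hochberg over 23602 units, with a threshold of 0.05, and the code was tested on simulated data. P-values measure the spread between arrays, since the labels do not tie arrays to dogs, and precision is limited by how many arrays there are.

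The 81 named genes are, since none passed, the 6 of smallest p on either side of 0 and the 3 with the smallest p of each of the 27 lists (of 35) with at least 5 measured members. The members, the lists and the plan were chosen with earlier results of these data known, and list members outside the rule were named after their values were seen. Single values of a few of these genes are not reported here, and the list counts include them. Alternatives were other background corrections and normalisations, the deposited values, filters, no dye term, all 30 arrays, blocks for slide and replicate, array weights, the mean over probes, single slides and each array left out. A dye term per scan session and a fit without both replicate 2 time arrays were added after the data were seen.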

Additional observations from a re-analysis of the deposited data

Results flagged for a closer look

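Of 109 sets of 4 kibble array values examined (81 genes, 27 lists and the spread of the ratios), 6 held 1 array far from the other 3 by Dixon's criterion, which chance alone passes in about 1 set in 20. All 6 were array 2. The SD of its log2 ratios was 0.4181, against at most 0.207 on the others. Its dye-corrected log2 ratio was 0.7519 for TAP2 and 0.6482 for HSP90B1, an endoplasmic reticulum chaperone. It was -0.7205 for SSR1, a subunit of the translocon-associated complex, -0.5754 for BIRC5 (survivin, expressed in dividing cells) and -0.5748 for ABCC4, a drug efflux pump. None of the 27 list medians had such an array.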

How the results depend on the processing

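The count of 0 units for the kibble change became 1 with Feature Extraction's processed signals, 204 with ratios scaled between arrays, 10 in the fit of all 30 arrays and 1055 with array weights. Leaving out 1 array gave 0 to 55, with 55 without raw meat array 1. The kibble and raw meat changes differed for 1736 units under median centring (20 above, 1716 below), which moved the median difference of all units to -0.095, and for 0 in the other fits run. The dye term passed for 2052 units, and for 17037 under median centring, 4989 with 30 arrays, 314 without the 4 kibble arrays, 658 with the time arrays of slide 3, 3574 with array weights, and 889 to 2153 with 1 array left out (889 without array 2 of kibble in Cy3 against raw meat in Cy5 at week 6). Kibble and raw meat arrays share replicate numbers, and deviations of their week 6 over week 3 ratios correlated within numbers at 0.292, 0.812, 0.036 and 0.569. The third is under the 0.1 set for pairing and kibble array 1 correlated better with raw meat array 4 (0.386), so the numbers were not taken as pairs. With the replicate block 0 units passed for the kibble change, and 3212 rather than 4242 had an unadjusted p below 0.05. Of the named-gene values under other settings, 2784 kept direction and side of the threshold, 26 passed and 24 changed sign. Without the 4 kibble arrays, the values that changed sign were 0.06009 for RPL27, 0.05623 for RPS14, 0.01404 for PRF1, -0.2696 for CD86, -0.3179 for CTSS, -0.3195 for CD163, 0.004819 for EPB41, -0.1046 for FCER1A, -0.1603 for FLT3, 0.1362 for DLA-79, -0.05026 for ETFDH, -0.3366 for HMOX1, -0.3163 for HSP90B1, -0.3325 for HSP70 and -0.1815 for VIM. Without a dye term they were 0.017 for RPS14, 0.01671 for PCK1 and 0.02469 for PSMC1. Time arrays of slide 4 gave CD1C 0.00713, those of slide 3 gave HSP70 -0.05224, the mean over probes gave CD80 0.08391, and a dye term per scan session gave HSP70 -0.0102. Without both replicate 2 time arrays HSP90B1 was -0.0020, and IFNG ranged from -0.10 to 0.010 with 1 array left out. The cause of these shifts was not tested.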
